A study of Mus musculus with 6 samples.

Results

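The forkhead (Fox) family of transcription factors was examined as 39 listed genes with 2 kb on either side, of which 37 had at least 3 measured cytosines, among 26808 genes in all. Fox factors share a winged-helix DNA-binding domain. They steer the formation of endoderm, mesoderm, eye, muscle and cilia, act below insulin signalling (the FOXO branch) or drive cell division (FOXM1), and most of the developmental members are silent in embryonic stem (ES) cells. Many Fox genes are short and sit in CpG islands, stretches of CpG-dense DNA that are usually free of methylation, whereas the bodies of long genes usually carry methylated CpGs. CpG methylation was therefore read separately at the starts and along the bodies of these genes.

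The assay was reduced representation bisulfite sequencing (RRBS), in which the enzyme MspI cuts at CCGG, a size fraction is kept, and bisulfite turns unmethylated cytosines into bases read as T. Androgenetic haploid ES cells (AG-haESCs) derive from embryos that carry only a paternal genome in a single copy. The lines were 3 double knockout (DKO) AG-haESC lines, titled with deletions of the H19 DMR and the IG-DMR, at passages 32, 31 and 29, and 2 wild-type (WT) AG-haESC lines at passages 31 and 18. The DMRs are control regions of imprinted genes, and all 5 lines were grown on feeders with 2i. One library of round spermatids from testis, the haploid germ cells that come before sperm, was the study's control. All libraries were of the strain C57BL/6, and no library is labelled as a pool. Whether lines came from separate embryos is not labelled; the titles of DKO replicate 2 and WT replicate 1 share the name OG3, and those of DKO replicate 3 and WT replicate 2 the name AGH-2, so differences between groups are set against the spread between these lines only.

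The 39 genes were taken from a list of names, not from any measured value, and the 26808 genes are those with a known strand. Only cytosines with at least 10 reads in all 6 libraries were used, and 12614 of all genes had at least 3 of them. Foxs1 and Foxi2 had 0 measured cytosines and are not analysed here. The 37 genes held 1111 cytosines, of which 450 lay in promoter windows (1 kb before to 0.5 kb after the start), 551 in bodies (0.5 kb after the start to the gene end) and 110 elsewhere in the 2 kb flanks or upstream parts of the gene. A promoter window with at least 3 cytosines was available for 27 members and a body window for 31. The members without a promoter window were Foxs1, Foxo1, Foxm1, Foxi2, Foxc2, Foxb1, Foxn1, Foxa1, Foxn3, Foxc1, Foxh1 and Foxd4, and those without a body window were Foxs1, Foxi2, Foxj3, Foxi1, Foxh1, Foxn4, Foxp2 and Foxi3. By gene span, 21 of the 37 were short (under 10 kb) and 16 were long. A level is the percentage of methylated reads among all reads summed over a window. Reads carry no molecular identifiers and whether duplicates were removed is not given, so PCR copies may count as separate reads. Neighbouring cytosines also share reads. All intervals therefore cover counting error only and are too narrow.

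Total read counts over cytosines were 197728785 to 205637856 in the DKO lines, 227097459 and 255726544 in the WT lines and 293920118 in round spermatids, and the median depth of the shared cytosines was 364 to 503 reads. The mean level over all 233019 shared cytosines was 5.07% to 7.24% in the DKO lines, 4.13% and 8.09% in the WT lines and 22.4% in round spermatids. As a check of the labels, the H19 DMR window held 0 reads in each DKO line, 22 and 23 reads in the WT lines and 0 in round spermatids. The IG-DMR window held 0, 0 and 62 reads in DKO replicates 1, 2 and 3, 164 and 0 in WT replicates 1 and 2 and 1 in round spermatids, so at this depth it does not check the labels. Whether the deletion spans the 2 cytosines read in DKO replicate 3 is not given. Of 10 listed pluripotency genes 3 promoters were measured, and their mean was 0.0134% to 0.0546% in the lines and 2.39% in round spermatids, where Utf1 was at 7.13% and the others below 1%. The mean of the promoters of germ cell genes (5 of 8 measured) was 7.82% to 17% in the lines and 0.142% in round spermatids. By gene, the average over the lines ranged from 1.89% at Ddx4 to 23.3% at Taf7l. Of 10 spermatid genes 3 promoters were measured, and they went different ways: Tssk1 averaged 22.4% ± 18 over the lines (SD, n = 5), against 99.9% in round spermatids, whereas Tnp1 averaged 12.1% ± 10.1 over the lines, against 0% in round spermatids. Tssk6 was below 1% in both. For testis somatic cell markers 0 of 8 promoters were measured. The 2 measured promoters of feeder fibroblast markers had a mean of 3.94% to 7.84% in the lines and 0.0146% in round spermatids. They went different ways: Twist2 averaged 10.9% over the lines, against 0% in round spermatids. Fbln1 averaged 0.0169% over the lines, against 0.0292% in round spermatids. Methylation does not count cells, and the share of feeder cells or testis somatic cells in any library was not tested.

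The starts of Fox genes differ widely in their density of CpGs and MspI sites. Of the 39 members, 25 had a promoter sequence in RefSeq (GRCm38.p6, which is mm10), covering 250 bases before to 50 after the start. They held a median of 25 CpGs, with a range of 5 to 59, against a median of 7 in all 27025 promoters. The MspI site CCGG, which is its own reverse complement, occurred in 21 of the 25 Fox promoters (84%) and in 52.6% of all promoters. Density alone did not decide which starts were measured: cytosines of the 300 bases were measured in 7 of the 25, which held 12 to 42 CpGs, and not in the other 18, which held 5 to 59. Upstream sequences of 5 members are shown 5′ to 3′ in the direction of the gene, because they span this range from island to CpG-poor start and include a dense start, that of Foxk2, with no measured cytosine. Capitals mark the CpGs at which at least 1 strand was measured in all 6 libraries. The Foxj3 sequence is chr4:119539411-119539660 (plus strand), Foxk2 is chr11:121259737-121259986 (plus strand), Foxa3 is chr7:19023540-19023789 (minus strand), Foxi1 is chr11:34208090-34208339 (minus strand) and Foxi2 is chr7:135410117-135410366 (plus strand).
Foxj3: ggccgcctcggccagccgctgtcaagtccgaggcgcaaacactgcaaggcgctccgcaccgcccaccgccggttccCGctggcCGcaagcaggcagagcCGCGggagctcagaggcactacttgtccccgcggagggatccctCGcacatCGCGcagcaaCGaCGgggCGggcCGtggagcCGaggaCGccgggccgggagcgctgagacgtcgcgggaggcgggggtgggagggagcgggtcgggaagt
Foxk2: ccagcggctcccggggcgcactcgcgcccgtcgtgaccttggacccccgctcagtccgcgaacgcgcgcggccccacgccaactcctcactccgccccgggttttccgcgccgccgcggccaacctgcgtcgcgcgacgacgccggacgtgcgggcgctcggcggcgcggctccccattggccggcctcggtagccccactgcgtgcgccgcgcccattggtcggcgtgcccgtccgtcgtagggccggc
Foxa3: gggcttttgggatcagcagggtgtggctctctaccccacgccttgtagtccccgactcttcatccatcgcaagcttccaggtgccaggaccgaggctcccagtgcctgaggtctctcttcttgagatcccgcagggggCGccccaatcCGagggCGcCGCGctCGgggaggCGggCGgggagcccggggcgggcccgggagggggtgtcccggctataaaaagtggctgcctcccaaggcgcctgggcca
Foxi1: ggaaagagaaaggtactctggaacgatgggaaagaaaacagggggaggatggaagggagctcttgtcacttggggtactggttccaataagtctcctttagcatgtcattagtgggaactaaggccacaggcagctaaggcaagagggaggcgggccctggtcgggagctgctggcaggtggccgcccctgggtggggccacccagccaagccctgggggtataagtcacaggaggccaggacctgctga
Foxi2: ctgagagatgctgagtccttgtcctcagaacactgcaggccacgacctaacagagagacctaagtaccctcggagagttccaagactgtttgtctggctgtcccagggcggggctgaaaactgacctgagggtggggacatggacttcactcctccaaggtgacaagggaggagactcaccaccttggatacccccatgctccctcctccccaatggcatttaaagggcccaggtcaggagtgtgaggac
The Foxj3 stretch held 34 CpGs and 3 CCGG sites, and all 13 of its measured cytosines were nearly unmethylated, with a highest level of 0.374% in any line and 0% in round spermatids. The Foxk2 stretch held 48 CpGs and 5 CCGG sites but no measured cytosine. The Foxa3 stretch held 18 CpGs, and its 8 measured cytosines were at 0% in all 6 libraries. The stretches of Foxi1 and Foxi2 held 4 and 3 CpGs, no CCGG and no measured cytosine. Foxi1 was measured only on the other side of its start, and Foxi2 not at all.

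Nearly all Fox promoters were almost free of methylation in round spermatids, and 14 of 27 reached at least 1% in some library. In round spermatids 25 of 27 promoter windows were below 1% (92.6%, against 94.8% of 8170 promoters of all genes), and the remaining pair were Foxi1, which specifies ion-transporting cells of kidney and inner ear, at 27.5%, and Foxd3, a neural crest and pluripotency factor, at 1.54%. With a difference counted when the mean of the 5 lines and the round spermatid level differed by at least 25 points and the round spermatid level lay outside the range of the lines, 0 of 27 Fox promoters were lower in the lines (background 1.74% of all promoters) and 0 were higher (background 0.049%). No test applies, because round spermatids have 1 library. All 6 libraries were below 1% at 13 of the 27 Fox promoters (48.1%), against 81.3% of all promoters.

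**Figure D1:**
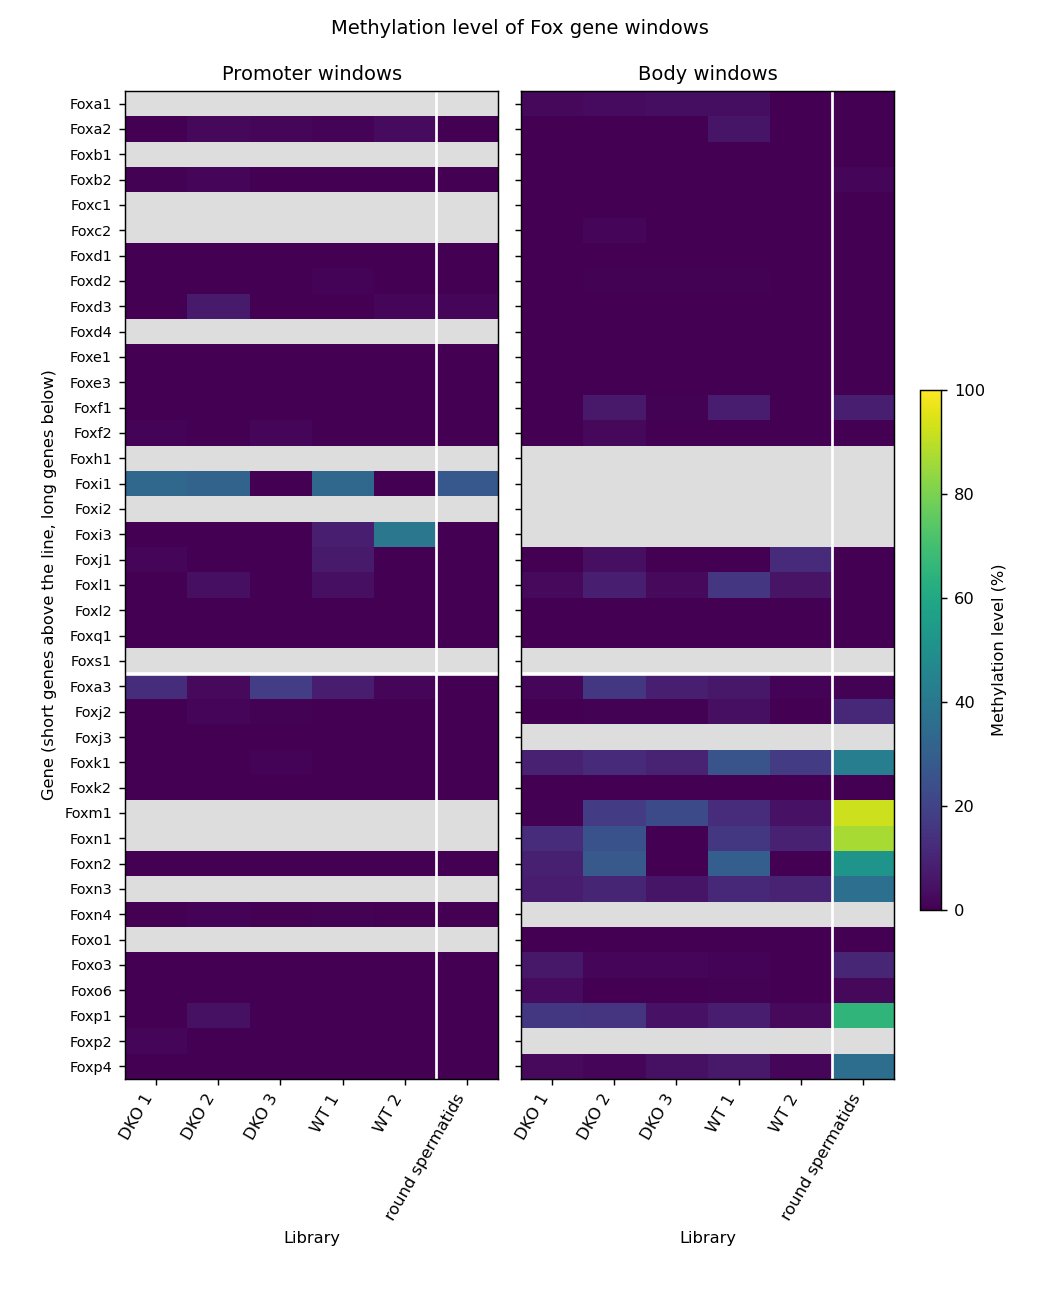
Heat map of the methylation level (%, colour scale from 0 to 100) of promoter windows (left) and body windows (right) of each Fox gene in each library, with short genes above the white line and long genes below; grey marks windows with fewer than 3 measured cytosines. Promoters are dark in nearly all libraries apart from Foxi1, Foxi3 and Foxa3, while bodies of 7 long genes from Foxk1 to Foxp4 are bright in round spermatids and darker in every line.

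Methylation that stood above round spermatids was found at a few promoters, in different lines for different genes. Foxa3 (chr7:19013283-19023539), one of the factors that open liver and gut genes, had methylation at 2 cytosines of its promoter window, both inside the gene. Its promoter window (23 cytosines, 13 of them inside the neighbouring gene Sympk) was at 13.0%, 2.51% and 18% in DKO replicates 1, 2 and 3, at 7.75% and 1.24% in WT replicates 1 and 2 and at 0.0190% in round spermatids (Wilson 95% interval 0.00740% to 0.0489%). Every line lay above round spermatids, and the DKO and WT lines overlapped. The methylated Foxa3 cytosines, 467 and 485 bases after the start, lay outside the printed upstream stretch and were among the most deeply read. With each cytosine given equal weight the difference of lines and round spermatids was 1.05 points, against 8.47 with summed reads. The Foxa3 cytosine 467 bases after the start was at 29.9%, 0.370% and 26.1% in the DKO lines, 29.6% and 2.07% in the WT lines and 0.0560% in round spermatids.

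Foxi3 (chr6:70956606-70961066), which acts in ectodermal placodes and hair, had the largest difference between lines among the promoters. Its promoter window (4 cytosines) was at 0.148%, 0.347% and 0.209% in DKO replicates 1, 2 and 3, at 8.51% and 39.6% in WT replicates 1 and 2 and at 0% in round spermatids, where 0 methylated of 1012 reads allows a level of up to 0.296%. Both WT lines were above the 3 DKO lines, and WT replicate 2, the line of passage 18, was far above WT replicate 1. The difference of lines and round spermatids was 9.76 points at Foxi3, and 2.30 without WT replicate 2. A single cytosine, at -474 bases from the start of Foxi3, carried most of this, at 0.386%, 0.427% and 0.342% in the DKO lines, 15.2% and 99.6% in the WT lines and 0% in round spermatids. The passage of that line and its level go together here and cannot be told apart from the line itself.

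Foxi1 (chr11:34204341-34208089) was the only Fox promoter above 2% in round spermatids, and the lines fell on both sides of it. Its 3 cytosines, all within 100 bases after the start, were together at 33.3%, 32% and 0% in DKO replicates 1, 2 and 3, at 33.3% and 0% in WT replicates 1 and 2 and at 27.5% in round spermatids (Wilson 95% interval 25.9% to 29.2%). Both groups of lines thus held libraries near 33% and a library at 0%, with the 0% values resting on 69 reads in DKO replicate 3 and 795 in WT replicate 2, which allow up to 4.35% and 0.377%. The equal window values came from different cytosines. The Foxi1 cytosine 88 bases after the start was at 100%, 51.3% and 0% in the DKO lines, 0% in both WT lines and 82.6% in round spermatids, and the one at 77 bases was at 0%, 44.6% and 0% in the DKO lines, 100% and 0% in the WT lines and 0% in round spermatids. DKO replicate 1 had only 10 reads at each of them.

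The other promoters reached at most 7.19%, in DKO replicate 2 at Foxd3, which was at 0.0385% and 0% in the other two DKO lines, 0.0142% and 1.40% in the WT lines and 1.54% in round spermatids. Foxj1, the master regulator of motile cilia, was at 1.84%, 0.350% and 0.0671% in the DKO lines, 7.14% and 0% in the WT lines and 0.0175% in round spermatids. Foxp1 was at 0.0346%, 4.39% and 0% in the DKO lines, 0.0168% and 0.0141% in the WT lines and 0% in round spermatids. With summed reads, a single line stood above the rest at each of these 3 promoters. It was DKO replicate 2 at Foxd3 and Foxp1 and WT replicate 1 at Foxj1. With each cytosine given equal weight, Foxd3 was highest in WT replicate 2 (3.15%), above DKO replicate 2 (1.67%). The Foxd3 cytosines at -805 and -760 bases from the start were methylated in both of these lines. WT replicate 2 was at 34.8% and 28.0% there, DKO replicate 2 at 13.3% and 19.5%. Round spermatids had 21.9% and 0%, and the remaining lines at most 0.262%. Every line lay above round spermatids at 5 of 27 Fox promoters (18.5%, background 7.31%), namely Foxa2 (0.0894% to 2.77% in the lines and 0.0505% in round spermatids), Foxa3, Foxe3, Foxi3 and Foxk1. Every line lay below at 2 (7.41%, background 14.5%), namely Foxl2 and Foxp4. At Foxe3, Foxl2 and Foxp4 the highest value was 0.175%, at Foxl2 in round spermatids, where 32 reads were methylated. At Foxk1 the lines other than DKO replicate 3 (1.01%) were at 0.0139% to 0.0321%, with 4 to 12 methylated reads, and round spermatids at 0.0114%, with 6. The order at Foxe3, Foxk1 and Foxp4 thus rests on few methylated reads. The count of 5 became 8 without DKO replicate 3. Averaged over the 27 Fox promoters the level was 1.80% ± 0.589 in the lines (SD, n = 5) and 1.10% in round spermatids, with Foxi1 the main contributor, against 0.797% ± 0.252 in the lines and 1.80% in round spermatids over all promoters.

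The bodies of 7 long Fox genes were much less methylated in each line than in round spermatids. With summed reads, 16 of 18 bodies of short Fox genes were below 10% in all 6 libraries, all except Foxl1 and Foxj1. With each cytosine given equal weight, the body of Foxf2 was at 17.4% in DKO replicate 2 and that of Foxf1 at 16.9% in round spermatids. By the same rule of size, 7 of 31 Fox bodies were lower in the lines (22.6%, background 40.9%), and 0 were higher (background 0.186%). All 7 were long genes, 7 of 13 long members (53.8%, background 45.5% of genes of 10 kb or more), while 0 of 18 short members were lower (background 24.5% of genes under 10 kb). Line by line, 7, 6 and 7 Fox bodies were at least 25 points lower in DKO replicates 1, 2 and 3 (background 41.4%, 39.7% and 41.4%), and 5 and 6 were in WT replicates 1 and 2 (background 38.6% and 42.5%). The mean level of the 13 long bodies was 6.56% ± 2.90 in the lines (SD, n = 5) and 33.6% in round spermatids. That of the 18 short bodies was 1.02% ± 0.669 in the lines and 0.594% in round spermatids. Over all genes of 10 kb or more it was 11.2% ± 3.05 in the lines and 42.6% in round spermatids. Over all shorter genes the lines averaged 6.06% ± 1.77, with 22.6% in round spermatids.

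Foxm1 (chr6:128362994-128375886), which switches on genes of the G2 and M phases of the cell cycle, was nearly fully methylated in round spermatids and much lower in the lines. Its body (8 cytosines, 2684 to 3024 bases after the start) was at 0.774%, 17.4% and 22.6% in DKO replicates 1, 2 and 3, at 12.8% and 4.88% in WT replicates 1 and 2 and at 92.4% in round spermatids (Wilson 95% interval 90.5% to 94.0%, 886 reads). The difference of lines and round spermatids was -80.7 points, the largest among the Fox bodies, and every line was far below round spermatids. This rank was not kept: with at least 30 reads per cytosine the difference was -79.9 points at Foxm1 and -95.6 at Foxn1, and over the whole gene with 2 kb on each side it was -33.7 at Foxm1 and -74.2 at Foxn1. At 7 of the 8 Foxm1 cytosines round spermatids were above 90%, and the exception, 3014 bases after the start, was at 0%, 26.2% and 0% in the DKO lines, 68.8% and 25.3% in the WT lines and 10.8% in round spermatids.

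Foxn1 (chr11:78357577-78386783), the factor of thymic epithelium and hair that is lost in nude mice, had 4 measured body cytosines, 21840 to 22869 bases after its start. They were together at 12.8%, 25.3% and 0% in the DKO lines, 16.2% and 8.99% in the WT lines and 86.8% in round spermatids (Wilson 95% interval 81.6% to 90.7%, 212 reads). All lines were far below, and DKO replicate 3 had 0 methylated of 1214 reads, which allows up to 0.247%. The cytosines were split: at 3 of them round spermatids were at 100%, while the fourth, 22869 bases after the Foxn1 start, was at 24.7%, 42.6% and 0% in the DKO lines, 37.5% and 19% in the WT lines and 0% in round spermatids.

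Foxp1 (chr6:98925342-99522746), which acts in B cells, neurons and heart and has an ES cell splice form, has the longest span among the members, 597405 bases. Its 36 body cytosines were at 16.0%, 14.9% and 5.02% in the DKO lines, 8.16% and 2.65% in the WT lines and 65.2% in round spermatids (Wilson 95% interval 64.5% to 66.0%). Round spermatids were above 90% at 21 of the 36 and the lines differed from each other at many of these. The Foxp1 cytosine 95306 bases after the start was at 100%, 31.4% and 0% in the DKO lines, 0% in both WT lines and 100% in round spermatids, while another, at 95276 bases, was at 0%, 100% and 0% in the DKO lines, 0.501% and 0% in the WT lines and 99.9% in round spermatids. RefSeq gives 3 starts for Foxp1, and the promoter window of the third start (10 cytosines, inside the body) was at 0.0343% ± 0.0329 in the lines (SD, n = 5) and 0.0437% in round spermatids. This internal start was nearly unmethylated in all 6 libraries.

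The other 4 genes had partly methylated bodies in round spermatids. Foxn2 (chr17:88440704-88490533, 4 cytosines) was at 8.98%, 27.8% and 0% in the DKO lines, 29.7% and 0% in the WT lines and 51.9% in round spermatids (Wilson 95% interval 47.6% to 56.0%). Foxk1 (chr5:142401497-142462015), a repressor in muscle progenitors and of autophagy genes (16 cytosines), was at 9.22%, 12.4% and 9.67% in the DKO lines, 26.1% and 17.8% in the WT lines and 42.8% in round spermatids (Wilson 95% interval 41.8% to 43.8%). Foxn3 (chr12:99190081-99563667), a repressor linked to cell cycle checkpoints (34 cytosines), was at 7.62%, 10.3% and 5.52% in the DKO lines, 11.5% and 10.1% in the WT lines and 36.6% in round spermatids (Wilson 95% interval 35.8% to 37.3%). Every line was below round spermatids at each of these 3, with the narrowest spread between lines at Foxn3 and the widest at Foxn2. Of the 34 Foxn3 cytosines, 14 lay inside the overlapping gene Gm51999. The Foxn3 start used, chr12:99450074, lies inside the quoted span, so its body window covers only part of that span.

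Foxp4 (chr17:47867133-47924632), a relative of Foxp1 (41 cytosines), was at 2.47%, 1.25% and 4.66% in the DKO lines, 6.80% and 1.52% in the WT lines and 36.2% in round spermatids (Wilson 95% interval 35.6% to 36.8%). Its intermediate level was a mixture, as round spermatids were above 90% at 20 of the 41 Foxp4 cytosines and below 10% at 17. The calls of Foxk1, Foxn2, Foxn3 and Foxp4 ended when the whole gene with 2 kb on each side was taken. The differences were then -3.99, -1.05, -13.0 and -18.2 points. This window adds nearly unmethylated promoter cytosines at Foxk1, Foxn2 and Foxp4. Foxn3 has 0 promoter cytosines at the start used, and the window adds 15 upstream or flank cytosines, 4 of them above 90% in round spermatids. The others include 11 cytosines of the promoter window at the 5′ end of the Foxn3 gene span. That window was nearly unmethylated too, averaging 0.437% over the lines, against 0.0106% in round spermatids. With each cytosine given equal weight in place of summed reads, the difference grew to -50.3 points at Foxk1 (-27.8 with summed reads) and -45.8 at Foxn3 (-27.6 with summed reads). At Foxn3 it was -49.0 with at least 30 reads per cytosine.

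**Figure D2:**
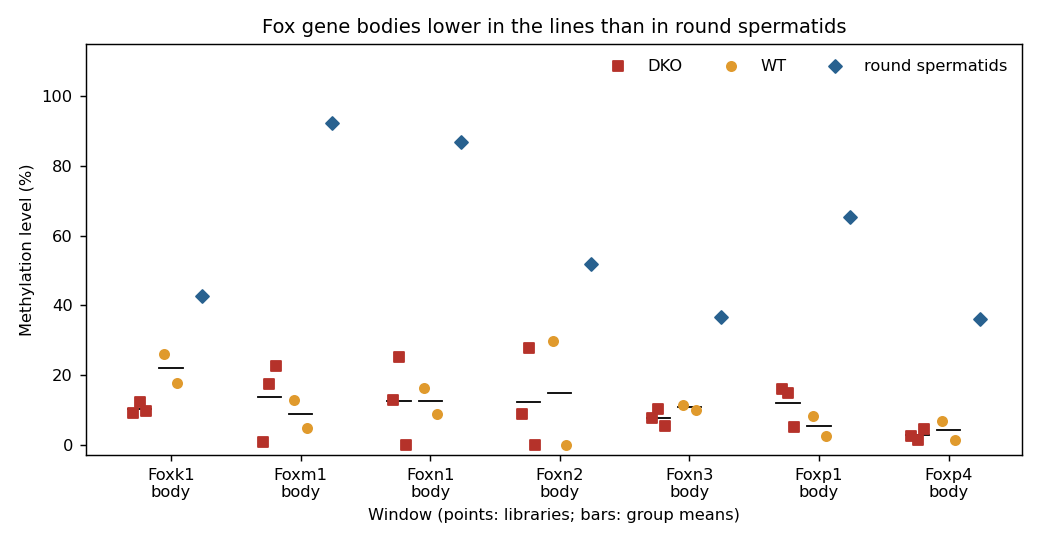
Methylation level (%) of the 7 Fox gene bodies that were lower in the lines, with a point for each library (3 DKO lines, 2 WT lines, 1 round spermatid library) and bars at the means of DKO and WT. Every line lies below round spermatids at all 7 genes, and DKO and WT points overlap at all but Foxk1.

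Lower but under the 25-point size were the bodies of Foxj2 and of Foxo3, a FOXO factor that holds ovarian follicles in reserve and acts in stress responses. Foxj2 was at 0.189%, 0.644% and 0.626% in the DKO lines, 4.13% and 0.0591% in the WT lines and 11.4% in round spermatids (Wilson 95% interval 10.6% to 12.2%). Foxo3 was at 6.60%, 1.43% and 1.73% in the DKO lines, 0.847% and 0.112% in the WT lines and 10.6% in round spermatids (Wilson 95% interval 10.1% to 11.1%). These sizes depend on the window and the weights. The Foxj2 difference was -10.2 points, and -17.5 with equal weights, -5.94 with at least 30 reads and -3.39 over the whole gene. That of Foxo3 was -8.46 points, and -18.3 with equal weights and -2.14 over the whole gene. In all, every line lay below round spermatids at 12 of 31 Fox bodies (38.7%, background 55.5%). Outside promoter and body windows, Foxh1, the DNA-binding partner of Smad2 that relays Nodal signals, had 10 cytosines in its 3′ flank, all inside the neighbouring gene Kifc2. With its 2 unmethylated promoter cytosines they gave 0.653%, 1.25% and 1.65% in the DKO lines, 0% and 0.0304% in the WT lines and 59.3% in round spermatids. Over such whole-gene windows 4 of 37 Fox genes were lower in the lines (10.8%, background 16.4%), namely Foxh1, Foxm1, Foxn1 and Foxp1. Foxn4, a factor of retina and spinal cord, had only 2 body cytosines, which were together at 0.405%, 64.9% and 52.3% in the DKO lines, 51.2% and 0% in the WT lines and 99.8% in round spermatids.

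The position of a cytosine within the gene went together with its level in round spermatids. Of the 1111 Fox cytosines, 96 were above 90% in round spermatids (8.64%, against 19.7% of all shared cytosines) and 988 were below 10%. None of the 450 promoter cytosines was above 90%, against 86 of 232 in bodies of long members and 1 of 319 in bodies of short members (37.1% and 0.313%). Over all genes, with a cytosine counted for each gene it lies in, the shares were 0.785% in promoters, 36.0% in bodies of long genes and 13.8% in bodies of short genes. By distance, 0 of the 202 Fox cytosines between 1 and 2 kb after a start were above 90% (9.28% over all genes), 14 of 65 were between 2 and 5 kb (21.5%, and 23.9% over all genes), 11 of 89 between 5 and 20 kb (12.4%, and 35.3% over all genes) and 67 of 116 beyond 20 kb (57.8%, in 8 genes, and 50.2% over all genes). The Fox shares did not rise evenly with distance. At the 116 beyond 20 kb the mean level was 9.83% ± 3.54 in the lines (SD, n = 5) and 63.9% in round spermatids.

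**Figure D3:**
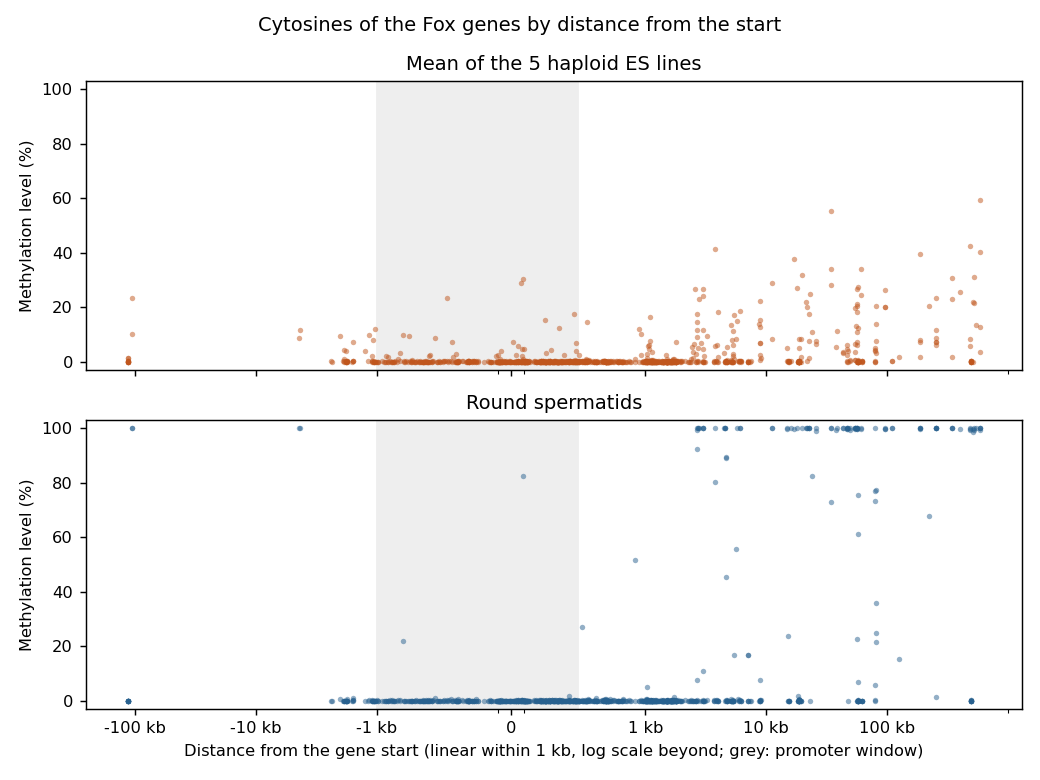
Methylation level (%) of each of the 1111 Fox cytosines against its distance from the gene start (linear within 1 kb, log scale beyond), as the mean of the 5 lines (top) and in round spermatids (bottom); grey marks the promoter window. In round spermatids most cytosines lie near 0 or near 100%, with those near 100% beyond 2 kb from the start, while the means of the lines are spread over lower levels.

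The 96 Fox cytosines above 90% in round spermatids averaged 11.5%, 18.4% and 13.3% in DKO replicates 1, 2 and 3 and 19% and 5.80% in WT replicates 1 and 2. All 46001 shared cytosines above 90% in round spermatids averaged 17.7%, 24.5% and 17.4% in the DKO lines and 27.0% and 14.2% in the WT lines. The Fox average was thus lower in each of the 5 lines, with no test applied. The order of the lines was nearly the same in both sets. WT replicate 1 was highest, followed by DKO replicate 2, which shares its name OG3. WT replicate 2, the line of passage 18 named AGH-2, was lowest. Whether line name or passage goes with this order was not tested. Of the 96, 24 were below 10% in every line (25%, background 13.2%), 7 of them in Foxp4, and none reached 50% in all 5 lines. The 96 were unevenly shared and the genes differed. Foxp1, Foxn3 and Foxp4 held 21, 21 and 20 of them, which averaged 19.7%, 11.8% and 6.94% over the lines. Those of Foxk1 (9 cytosines) and Foxn4 (3 cytosines) averaged 23.6% and 27.5%, above the 20.2% of all shared cytosines. Among the 988 Fox cytosines below 10% in round spermatids, 79 were at 10% or more in at least 1 line (8%, background 10.8%), 56 of them in a single line and 0 in all lines.

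A few Fox bodies were higher in the lines than in round spermatids, at low levels. Every line lay above round spermatids at 6 of 31 Fox bodies (19.4%, background 5.77%), 5 of which are short: Foxa1, Foxd2, Foxd4, Foxl1 and Foxl2; the sixth is Foxa3. At Foxd4 and Foxl2 the highest value was 0.0799%, at Foxd4 in WT replicate 1. Foxl1 (chr8:121127685-121130644), a factor of the mesenchyme under the gut epithelium, had the clearest signal, at 2.35%, 8.38% and 2.64% in the DKO lines, 15.6% and 5.43% in the WT lines and 0.0373% in round spermatids (Wilson 95% interval 0.0226% to 0.0615%). Its 6 methylated cytosines lay 965 to 1095 bases after the start, and the one at 1087 bases was methylated in every line, at 7.01%, 9.50% and 16.9% in the DKO lines, 39.9% and 9.27% in the WT lines and 0.0180% in round spermatids.

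With summed reads, Foxa3, a long gene by span, was the only long member whose body was higher in every line. It was at 1.83%, 16.2% and 8.41% in the DKO lines, 6.31% and 0.995% in the WT lines and 0.777% in round spermatids. The Wilson 95% interval of round spermatids was 0.682% to 0.884%. With each cytosine given equal weight, the Foxa3 body was lower in WT replicate 2 (0.504%) than in round spermatids (0.830%). Here 7 cytosines, 8801 to 8968 bases after the start, carried the signal, far from the methylated cytosine near the start. Foxa1, its relative, was at 1.97%, 2.81% and 3.79% in the DKO lines, 3.52% and 0.290% in the WT lines and 0.0293% in round spermatids. The body of Foxj1 was at 0.147%, 4.06% and 0.0635% in the DKO lines, 0.0764% and 12.5% in the WT lines and 0.254% in round spermatids (Wilson 95% interval 0.168% to 0.384%), and the lines fell on both sides of round spermatids. Among the other short bodies, Foxf1, a gene of lung and gut mesenchyme, was at 0%, 6.68% and 0.735% in the DKO lines, 7.74% and 0.0310% in the WT lines and 8.41% in round spermatids. The body of Foxa2, which forms endoderm and notochord, reached 5.56% in WT replicate 1 and at most 0.138% in the other libraries.

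**Figure D4:**
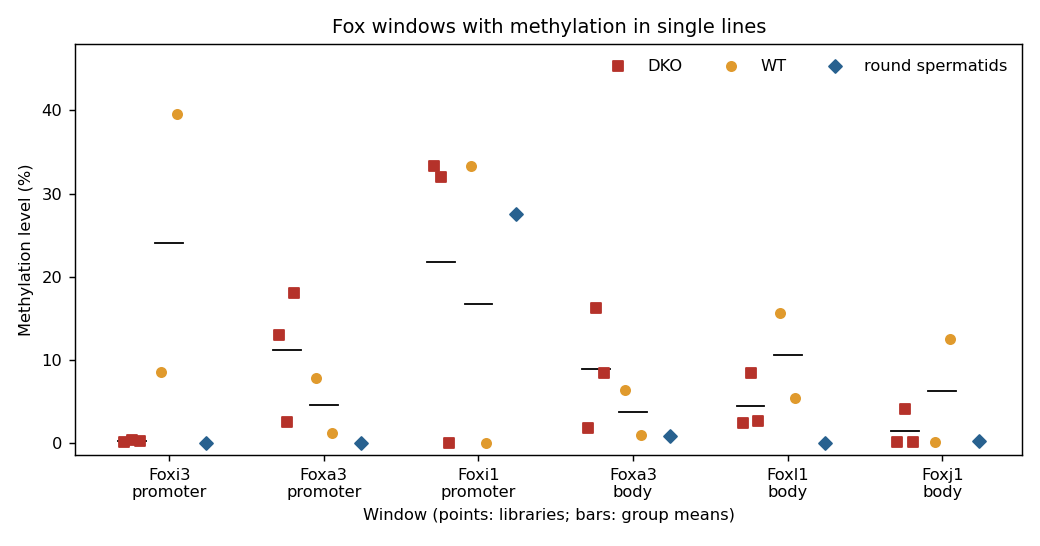
Methylation level (%) of 6 Fox windows with methylation in some lines, with a point for each library (DKO, WT, round spermatids from left to right) and bars at the means of DKO and WT. Foxi3 is high in the 2 WT lines, Foxi1 splits both groups of lines, and Foxl1 lies above round spermatids in all 5 lines.

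Between DKO and WT lines no Fox window differed by the test. The quasi-likelihood test of edgeR on methylated and unmethylated counts, fitted over all genes with Benjamini-Hochberg adjustment, called 0 of 27 Fox promoters and 0 of 30 Fox bodies that could be tested at an adjusted p under 0.05 (background 0% of 7768 promoters and 0% of 6857 bodies). At an unadjusted p under 0.05 there were 2 Fox promoters, Foxi3 and Foxf2 (background 2.61% of all promoters), and 1 Fox body, Foxk2 (background 2.07% of all bodies). Over all genes these were 203 promoters and 142 bodies; limma also called 0 in each, with 350 promoters and 217 bodies at an unadjusted p under 0.05. In simulated data, 77.5% of 200 promoters raised by 30 points were recovered but only 6% of 200 bodies, so body differences of that size would mostly be missed. In these data 4 unchanged promoters and 0 unchanged bodies were called. The raised windows were drawn from all genes, where 81.3% of promoters were below 1% in all 6 libraries. Recovery at Fox promoters with a wide spread between lines, such as Foxi3, was not tested.

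Foxi3 had the lowest unadjusted p among Fox promoters, with a log2 odds ratio of DKO over WT of -6.73 (edgeR adjusted p = 0.968), and was lower in 3 of 3 DKO lines than in both WT lines. With edgeR's likelihood ratio test in place of the quasi-likelihood test, Foxi3 was called (adjusted p = 0.0243). Foxf2, a gene of gut and lung mesenchyme, was at 0.849%, 0.0435% and 1.31% in the DKO lines, 0.0199% and 0.00718% in the WT lines and 0.0393% in round spermatids (log2 odds ratio 5.13, edgeR adjusted p = 0.968). Foxa3 and Foxi1, the promoters next to Foxi3 in the size of the difference between the groups, averaged 11.2% ± 7.89 and 21.8% ± 18.9 in DKO lines (SD, n = 3) and 4.49% ± 4.60 and 16.7% ± 23.6 in WT lines (SD, n = 2), and neither passed the test (edgeR adjusted p = 0.968 and 0.969).

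Groups of lines that did not overlap were a minority. All DKO lines lay above both WT lines at 5 of 27 Fox promoters (18.5%, background 13%), namely Foxf2, Foxo3, Foxp2, Foxp4 and Foxq1, and below both at 1 (3.7%, background 4.26%), Foxi3. Among bodies, all DKO lines were above at 4 of 31 (12.9%, background 8.77%), namely Foxb2, Foxk2, Foxo1 and Foxo3, and below at 1 (3.23%, background 6.44%), Foxk1. Apart from Foxi3, Foxk1 and the body of Foxo3, every one of these windows was below 2% in all 5 lines. Foxk1's body averaged 10.4% ± 1.70 in DKO lines (SD, n = 3) and 22.0% ± 5.82 in WT lines (SD, n = 2; edgeR adjusted p = 0.9997).

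Among genes that work with Fox factors no measured promoter differed by the rule of size, and 3 bodies were lower in the lines. Over all genes 40.9% of bodies were lower by this rule. Of 25 listed partners of FOXO factors, such as the Akt kinases that phosphorylate them, 17 had a promoter window and 0 differed in either direction, while 1 of 16 bodies was lower in the lines: Akt2, at 35.8% ± 24.7 in the lines (SD, n = 5) and 100% in round spermatids. For FOXH1 and Nodal signalling the 1 measured promoter of 12 did not differ by the rule and 1 of 4 bodies was lower, that of the signal carrier Smad3, at 23.5% ± 9.10 in the lines and 64.2% in round spermatids. Of 8 listed cell cycle genes driven by FOXM1, 0 of 3 promoters differed by the rule and the only measured body, that of the kinase gene Cdk1, was lower, at 15.0% ± 9.45 in the lines and 77.6% in round spermatids. In these 3 lists edgeR called 0 windows between DKO and WT lines, and 0 windows had an unadjusted p under 0.05.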

How the data were processed

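RRBS data of 3 DKO lines, 2 WT lines and 1 round spermatid library were used. Each deposited file gives methylated and unmethylated counts per cytosine and their fraction; the fraction matched the counts within a tolerance of 1e-09. Bismark 0.12.2 and the build mm10 are named per the submitters' processing notes. How reads were trimmed, or whether duplicates were removed, is not given in the sources used here. All 116301 deposited positions inside RefSeq promoter sequences were CpG cytosines, on both strands. Between pairs of libraries 0.714% to 1.46% of shared cytosines had identical counts, so none is a copy.

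The Fox members, gene lists and tests were chosen with earlier results of these data known. Cytosines needed 10 reads in all 6 libraries and windows 3 cytosines; 233019 of 2091599 cytosines met the minimum. Gene ends came from RefSeq (GRCm38.p6). Strand and the most upstream start came from the RefSeq promoter table for 26794 genes, and strand from general knowledge for 14 Fox genes, with the gene table's 5′ end as their start. Exons, introns and UTRs were not assigned. Values in every library were given for members at 10% or more in any library and for the 3 promoters with the largest difference of DKO and WT, and others were named after their values were seen.

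Lines and round spermatids were compared by size alone. DKO and WT lines were compared with edgeR 4.0.16 (R 4.3.3; quasi-likelihood, a term for each library, common dispersion, two-sided), tested on simulated data; an exact permutation test of 3 against 2 lines cannot give a p below 0.1. Alternatives covered read and cytosine minimums, window definitions, unweighted levels, the likelihood ratio test, limma 3.58.1, a block by line name and leaving out each line; one more, the 5′ end of the gene table as every start, was chosen after seeing the data.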

Additional observations from a re-analysis of the deposited data

Results flagged for a closer look

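Among 15 windows with a level of at least 10% in some library, 3 had a line whose gap to the nearest other line, divided by the range of the 5 lines, exceeded 0.71, Dixon's 95% critical value for 5 samples. Chance flags about 1 in 20 groups of 5, but this rate does not apply to the Foxi3 promoter, which is among the 15 only through the library that stands out. The Foxi3 promoter was at 39.6% in WT replicate 2, against 8.51% in WT replicate 1 and at most 0.347% in the DKO lines. The Foxj2 body was at 4.13% in WT replicate 1, against at most 0.644% in the other lines. The Foxo3 body was at 6.60% in DKO replicate 1, against at most 1.73% in the other lines, and a single Foxo3 cytosine 19879 bases after the start was at 99.6% in that line and 100% in round spermatids.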

How the results depend on the processing

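Of the values of single Fox windows under the alternatives, 178 kept their direction and either their side of the test's threshold or, where no test applies, a value within 1 SD of the lines; 16 of these 178 nevertheless changed by more than 1.5 times. A further 19 moved by over 1 SD, 1 turned and 1 became significant. The count of 7 bodies lower in the lines was again 7 when any line was left out. It was 4 with the whole gene and its flanks, where cytosines outside the body join the sum. These 4 were Foxh1, Foxm1, Foxn1 and Foxp1, and Foxh1, which has no body window, was not among the 7. The 5 promoters with every line above round spermatids numbered 5 to 8 when lines were left out. The likelihood ratio test called 1 Fox promoter (Foxi3) and 28 promoters and 21 bodies of all genes, where the quasi-likelihood test called 0. The log2 odds ratio of DKO over WT at the Foxi1 promoter was 2.62 with all lines and between -1.32 (without WT replicate 2) and 10.1 when a line was left out. That of Foxa3 was 1.60, and between 0.231 (without WT replicate 2) and 2.97 (without WT replicate 1). The Foxi1 difference of lines and round spermatids was -7.79 points, but -2.69 with at least 5 reads per cytosine and -2.86 without DKO replicate 3 or without WT replicate 2, and that of the Foxj1 body was 3.11, but 0.833 without WT replicate 2. The cause was not tested.

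The labels give no shared replicate numbers; a replicate block by the line names OG3 and AGH-2 called 0 Fox promoters, 0 Fox bodies, 17 promoters and 0 bodies of all genes. Foxi3 had a log2 odds ratio of -6.49 with the block, but was not at an unadjusted p under 0.05 in edgeR there. The Fox promoters that were numbered 3, namely Foxk1, Foxj2 and Foxf2, among 339 of 7768 promoters of all genes. That 1 library of round spermatids gives no spread limits every comparison with it, as do windows of 3 or 4 cytosines such as those of Foxi1, Foxi3, Foxn1 and Foxn2.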
